A study of Mus musculus with 6 samples.

Results

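CD5, CD24, CD27 and CD38 are surface proteins of blood cells that were read at 2 levels in the same cells of mouse spleen, as transcript (Cd5, Cd24a, Cd27 and Cd38, 4 of 31053 genes) and as bound antibody (4 of 34 antibodies). They were chosen by having both a gene and an antibody in the table, and with their class levels and the correlation of transcript with antibody over cell clusters already known, so the levels and correlations given here are descriptions without a test. Splenocytes were labelled with barcoded antibodies and captured in droplets, so that each cell gave RNA counts and antibody counts (CITE-seq). All mice were C57BL/6 males. The groups were aged mice of 20 months given PF4, a chemokine of platelets (5 μg/mL, recombinant mouse protein), aged mice of 20 months given saline, and young mice of 3 months given saline, each by 8 tail vein injections of 100 μL over 24 days. Spleens of 5 mice were pooled per group, red cells were lysed, and each pool gave 1 RNA and 1 antibody library. The barcodes carry a suffix (1, 2 or 3) that separates the libraries, but no label ties a suffix to a group, so no group was compared and the libraries are called 1, 2 and 3.

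CD5 is a scavenger receptor family protein of T cells and B-1a cells that restrains signalling from the antigen receptor. CD24 is a short, heavily glycosylated protein held in the membrane by a lipid anchor, high on immature B cells, red cell precursors and granulocytes. CD27 is a tumour necrosis factor receptor family member that binds CD70 and gives T and natural killer (NK) cells a costimulatory signal. CD38 is an enzyme of the cell surface that consumes NAD, and in the mouse it is carried by resting B cells and lost from germinal centre and plasma cells.

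In the mm10 annotation Cd5 lies on chromosome 19 (10717116 to 10739002, minus strand), Cd24a on chromosome 10 (43578284 to 43584265, plus strand), Cd27 on chromosome 6 (125232622 to 125237010, minus strand) and Cd38 on chromosome 5 (43868553 to 43912375, plus strand). The coding sequence of Cd24a is shown because its length sets it apart from the other members. It has 76 codons, against 494 for Cd5, 250 for Cd27 and 304 for Cd38. Serine and threonine codons, for residues that can carry O-linked sugars, are in capitals. They make up 14 of the 76 (18.4%), against 15.6% for Cd5, 14.8% for Cd27 and 13.5% for Cd38. These counts cover the whole coding sequence, with any part that is cut from the mature protein. Which of the residues carry sugars was not tested. The sequence is the GENCODE M21 transcript, read 5′ to 3′ on the plus strand between 43579254 and 43582765.
Cd24a: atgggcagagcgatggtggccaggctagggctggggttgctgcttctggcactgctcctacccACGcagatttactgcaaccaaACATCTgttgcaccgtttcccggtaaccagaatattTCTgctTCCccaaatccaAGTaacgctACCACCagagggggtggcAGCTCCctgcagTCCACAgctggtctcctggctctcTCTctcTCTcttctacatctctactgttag

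Of 29005 barcodes, 20161 (69.5%) had 300 to 5000 genes and at most 10% mitochondrial UMIs (unique molecular identifiers, 1 per captured molecule) and were kept, 4199, 7511 and 8451 in libraries 1, 2 and 3. Median RNA depth was 3625 to 3765 UMIs and median antibody depth 2017 to 2059 counts per cell. Clustering left the 4 genes and all antibodies out and gave 27 clusters, named from fixed marker lists. All markers of the B-like (10728 cells), T-like (5308), NK-like (490), neutrophil-like (727) and erythroid-like (472) classes were higher inside the class than outside it in every library. A further 548 cells in sub-clusters led by markers of the other lymphocyte lineage were set apart as mixed, and 399 cells stayed unnamed. Library 1 stood apart, with 405 of the 472 erythroid-like cells, 233 of 239 B1-like cells and 133 of 135 cells of a neutrophil-like cluster (cluster 21), and 43 kept barcode sequences occurred in more than 1 library.

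CD5 transcript and protein were both highest in T-like cells. Cd5 was at 144, 128 and 167 CPM (counts per 1000000 RNA UMIs, summed over the cells of a class) in T-like cells of libraries 1, 2 and 3, against 2.75, 3.02 and 4.63 CPM in B-like cells. The CD5 antibody had medians of 133.5, 126 and 133 counts per T-like cell, against 29, 33 and 35 per B-like cell. T-like cells lay far above B-like cells at both levels in every library. NK-like cells had 12.6 CPM of Cd5 (8.18 to 18.7, exact 95% Poisson interval, covering counting error only), neutrophil-like cells 6.71 CPM and erythroid-like cells 2.58 CPM. Their antibody medians of 33, 33 and 30 could not be told from those of B-like cells (quartiles 26 to 41), and CD5 medians lay between 29 and 40 counts in every cluster outside the T-like class.

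**Figure D1:**
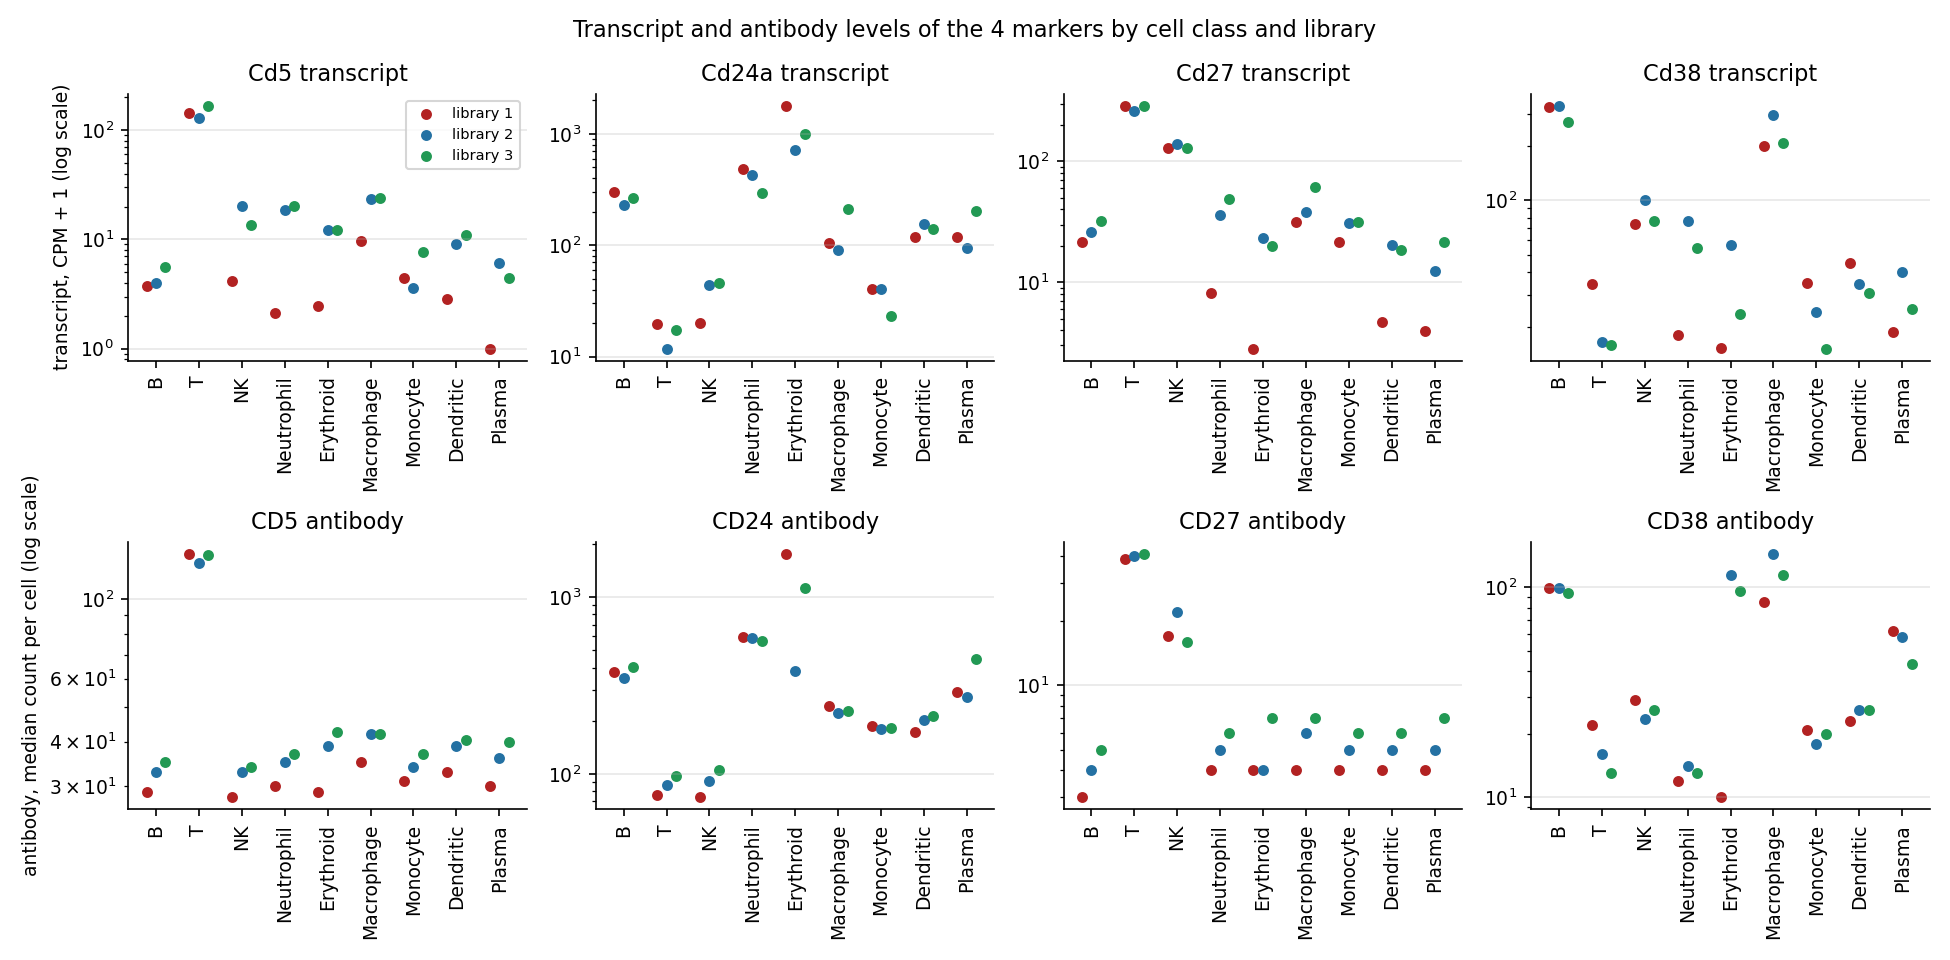
Transcript level (upper row, CPM plus 1, log scale) and median antibody count per cell (lower row, log scale) of the 4 markers in 9 cell classes, with 1 point per library. CD5 and CD27 stand out in T-like cells at both levels, CD24 in erythroid-like cells, and CD38 in B-like cells and macrophage-like cells (erythroid-like points of libraries 2 and 3 rest on 19 and 48 cells).

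CD24 was highest in erythroid-like cells at both levels and lowest in T-like cells. Erythroid-like cells had 1791, 722 and 992 CPM of Cd24a in libraries 1, 2 and 3, neutrophil-like cells 481, 429 and 296 CPM, B-like cells 302, 231 and 263 CPM and T-like cells 18.8, 10.8 and 16.5 CPM. The CD24 antibody followed the same order, with medians over all libraries of 1648.5 in erythroid-like, 587 in neutrophil-like, 377 in B-like, 99 in NK-like and 90 in T-like cells. Library 2, with 19 erythroid-like cells, departed from it with an erythroid-like median of 385 and a neutrophil-like median of 590, as did library 1 with medians of 74 in NK-like and 76 in T-like cells. NK-like cells had 40.4 CPM (32.1 to 50.3) of Cd24a and T-like cells 14.6 CPM (13.2 to 16.1). Without library 1, Cd24a in erythroid-like cells was 923 CPM, against 1691 CPM with it.

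CD27 marked T-like cells and, at a lower level, NK-like cells. Cd27 was at 288, 258 and 287 CPM in T-like cells of libraries 1, 2 and 3 and at 127, 138 and 128 CPM in NK-like cells. B-like cells had 20.5, 25.3 and 31.1 CPM. The antibody gave medians of 39, 40 and 41 counts in T-like cells, 17, 22 and 16 in NK-like cells and 3, 4 and 5 in B-like cells. The order of the 3 classes was thus the same in every library at both levels. How many other genes or antibodies had this order was not counted. Neutrophil-like cells had 18.6 CPM (13.8 to 24.6) and erythroid-like cells 3.87 CPM (2.0 to 6.76) with the same antibody median of 4.

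CD38 was highest in B-like cells among the lymphocytes. Cd38 was at 327, 331 and 270 CPM in B-like cells, 73.0, 99.3 and 75.8 CPM in NK-like cells, and 33.4, 15.6 and 14.95 CPM in T-like cells of libraries 1, 2 and 3. The antibody medians were 99.5, 99 and 94 in B-like cells, 29, 23.5 and 26 in NK-like cells and 22, 16 and 13 in T-like cells. Macrophage-like cells (347) had 225 CPM (196 to 256) with an antibody median of 109, against 304 CPM (299 to 310) and 97 counts in B-like cells. Plasma cell-like cells (150) had more antibody but a lower CPM than NK-like cells. The median was 54 counts at 27.8 CPM (21.0 to 36.0), against 26.5 counts at 80.9 CPM (68.8 to 94.4). The share of cells with a Cd38 UMI was not lower in plasma cell-like cells, at 39 of 150, against 104 of 490 NK-like cells. Median depth was 12519.5 UMIs in plasma cell-like and 3690.5 UMIs in NK-like cells. Depth enters the CPM and the share of cells with a UMI, and its part in the difference in CPM was not tested.

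Over the 27 clusters, the rank correlation of transcript CPM with the median antibody count was 0.911 for CD24, 0.852 for CD27, 0.797 for CD38 and 0.745 for CD5 (Spearman, n = 27 clusters that share libraries and depth). Within single libraries it was 0.842 to 0.862 for CD24, 0.589 to 0.808 for CD27, 0.631 to 0.799 for CD38 and 0.623 to 0.727 for CD5. CD5 medians stood above the narrow range of the other clusters in T-like clusters, and CD27 medians in T-like and NK-like clusters.

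**Figure D2:**
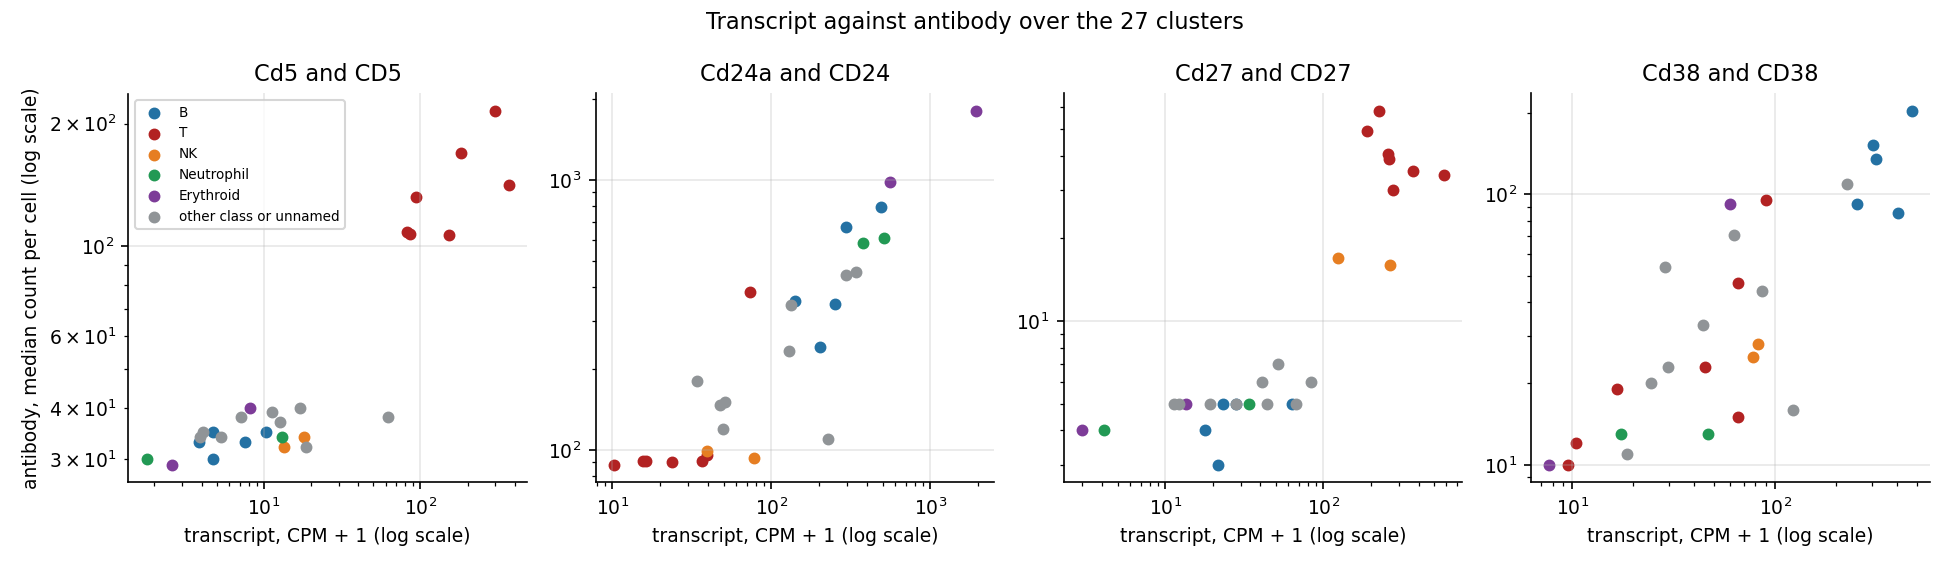
Transcript CPM plus 1 (horizontal, log scale) against median antibody count per cell (vertical, log scale) over the 27 clusters, coloured by cell class. CD24 is graded over the whole range up to cluster 13 (erythroid-like), with 1943 CPM and a median of 1801 counts, while CD5 outside T-like clusters stays between 29 and 40 counts.

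Within the T-like class, cells with more CD5 protein had more Cd5 transcript. The cells of a class in each library were ranked by antibody count and divided into 3 sets of equal size, of which the upper and lower sets were compared for their transcripts. In the upper CD5 set of T-like cells (327, 665 and 777 cells in libraries 1, 2 and 3) Cd5 was at 257, 249 and 289 CPM, against 60.7, 54.4 and 73.8 CPM in the lower set. The sets did not overlap between libraries, but how many other genes were without overlap was not counted. The ratio of upper to lower was 4.22 (3.85 to 4.64, exact interval of a ratio of counts). Of the 2920 genes with at least 50 CPM in T-like cells, 0.445% were at least 1.5-fold higher in the upper set in every library, Cd5 among them. The others were led by Izumo1r, a folate receptor family gene (8.14, 6.35 and 6.57-fold in libraries 1, 2 and 3), Cd6, the paralogue of Cd5 (2.55, 3.21 and 2.88-fold), and Cd4, the helper T cell coreceptor (2.48, 5.80 and 2.38-fold). Lowest in the upper set were Cxcr6, a chemokine receptor gene (0.25, 0.29 and 0.22), and the NK receptor genes Klrc2 (0.30, 0.20 and 0.11) and Klrk1 (0.43, 0.29 and 0.19). NK cell markers summed to 79.7 CPM in the upper and 284 CPM in the lower set (1 of 6 higher), and their part in the ratio was not tested.

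T-like subsets differed at both levels too. Follicular helper-like cells (sub-cluster T5, 386 cells) had 298 CPM of Cd5 and an antibody median of 213.5, regulatory-like cells (T7, 330 cells) 274 CPM and 202.5, and naive-like cells with a CD4 antibody median of 140 (T1, 1101 cells) 186 CPM and 175. Naive-like cells with a CD8a antibody median of 359.5 (T0, 1114 cells) had 84.7 CPM and 107, memory-like cells (T2, 981 cells) 80.8 CPM and 107, and NKT-like cells (T8, 158 cells) 59.7 CPM and 77.5. The CD4 antibody median was 126 in the upper CD5 set and 7 in the lower, whereas the CD8a median was 29 in the upper and 137 in the lower. When cells were ranked within their own sub-cluster and library, the ratio for Cd5 was 2.62 (2.40 to 2.87), with 2.86, 2.72 and 2.48 in the 3 libraries. Only 0.103% of genes (3 of 2920) then passed 1.5-fold in every library, and Cd5, Cd6 (2.55, 2.63 and 2.66) and Dapl1 (2.03, 1.73 and 1.89) were those 3.

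No B-like sub-cluster stood out for CD5 at either level. Over the 12 B-like sub-clusters that were not mixed, Cd5 ranged between 1.02 and 8.03 CPM and the antibody median between 28 and 37 counts. B1-like cells (B11, 239 cells, 233 of them in library 1) had 3.77 CPM of Cd5 (1.38 to 8.20) and a median of 30 counts in library 1, against 2.75 CPM and 29 counts in all B-like cells of that library. The ratio of Cd5 in the upper to the lower CD5 set of B-like cells was 1.18 (0.78 to 1.80), with 58 against 43 UMIs. At this depth a difference in the transcript was not detectable.

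Of 6 genes listed as acting with CD5, Cd6 was highest in T-like cells (97.5 CPM, against 2.70 CPM in B-like cells), and Ubash3a, a suppressor of T cell receptor signalling, had 21.4 CPM there. Cd72, a proposed CD5 ligand, was highest in B-like cells at 239 CPM. Ptpn6, the phosphatase SHP-1, had 424 CPM (417 to 430) there. Overlapping intervals were found for Ptpn6 in plasmacytoid-like (416 CPM, 349 to 492), monocyte-like (407 CPM, 387 to 428) and macrophage-like cells (382 CPM, 344 to 422). Cbl, a ubiquitin ligase, had 333 CPM in NK-like and 204 CPM in T-like cells, and Csnk2b, a casein kinase subunit, 101 CPM in T-like cells. The genes whose level over the 26 clusters of at least 50 cells was most like that of Cd5 were Camk4 (Spearman rho 0.960), Cd3g (0.954), Bcl11b (0.947), Skap1 (0.934) and Trat1 (0.932), out of 7200 genes.

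Across the T-like class, cells high and low in CD27 protein had close levels of Cd27 transcript. The upper CD27 set had an antibody median of 63 counts in each library, against 20, 21 and 26 counts in the lower set. Cd27 transcript was at 296, 258 and 302 CPM in the upper set, against 275, 266 and 264 CPM in the lower, a ratio of 1.06 (0.9997 to 1.12) that lay below 1 in library 2 (0.97). Of the 2920 genes, 0.445% were at least 1.5-fold higher and 0.171% at least 1.5-fold lower in the upper set in every library, and Cd27 was in neither set. Of genes named by a fixed rule, Gzmm, a granzyme gene (5.01, 5.14 and 12.9-fold), and Ly6c2 (2.71, 4.31 and 3.07-fold) were highest in the upper set, and Maf (0.40, 0.27 and 0.57), Cd4 (0.41, 0.21 and 0.62) and Igfbp4 (0.44, 0.33 and 0.64) lowest. Memory-like T2 cells made up 36.0% of the upper set and 5.82% of the lower, and the CD8a antibody median was 215 in the upper and 27 in the lower set.

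Across T-like subsets the order by CD27 antibody count was not the order by Cd27 CPM. Memory-like T2 cells had 220, 216 and 298 CPM with antibody medians of 55, 56 and 63, whereas regulatory-like T7 cells had 526, 563 and 374 CPM with medians of 33, 33 and 54. In every library T2 cells were therefore lower in transcript CPM and higher in antibody count than T7 cells. Median depth was 7723 UMIs and 2167 antibody counts in all in T2 cells, against 3604 UMIs and 1626.5 antibody counts in T7 cells. RNA depth enters the CPM and antibody depth the antibody count. The part of both in the difference was not tested. Follicular helper-like T5 cells had 287 CPM and a median of 29, and NKT-like T8 cells had 165 CPM and a median of 22, the lowest of both. The rank correlation over the 12 T-like sub-clusters was -0.25 for Cd27, against 0.48 for Cd5 and 0.69 for Cd38. Over the 10 with a median of at least 2000 UMIs it was -0.13, 0.66 and 0.76 in that order. Ranked within sub-cluster and library, the ratio for Cd27 was 1.22 (1.16 to 1.30), with 1.33, 1.27 and 1.15 in the 3 libraries, and above 1 in each. In the ranking within class the upper set had a median of 6383 UMIs, against 4168 in the lower, and 2073 antibody counts in all, against 1418. In the ranking within sub-cluster the medians were 5524 UMIs in the upper and 4670 in the lower set. The part of depth in the ratio of 1.22 was not tested.

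**Figure D3:**
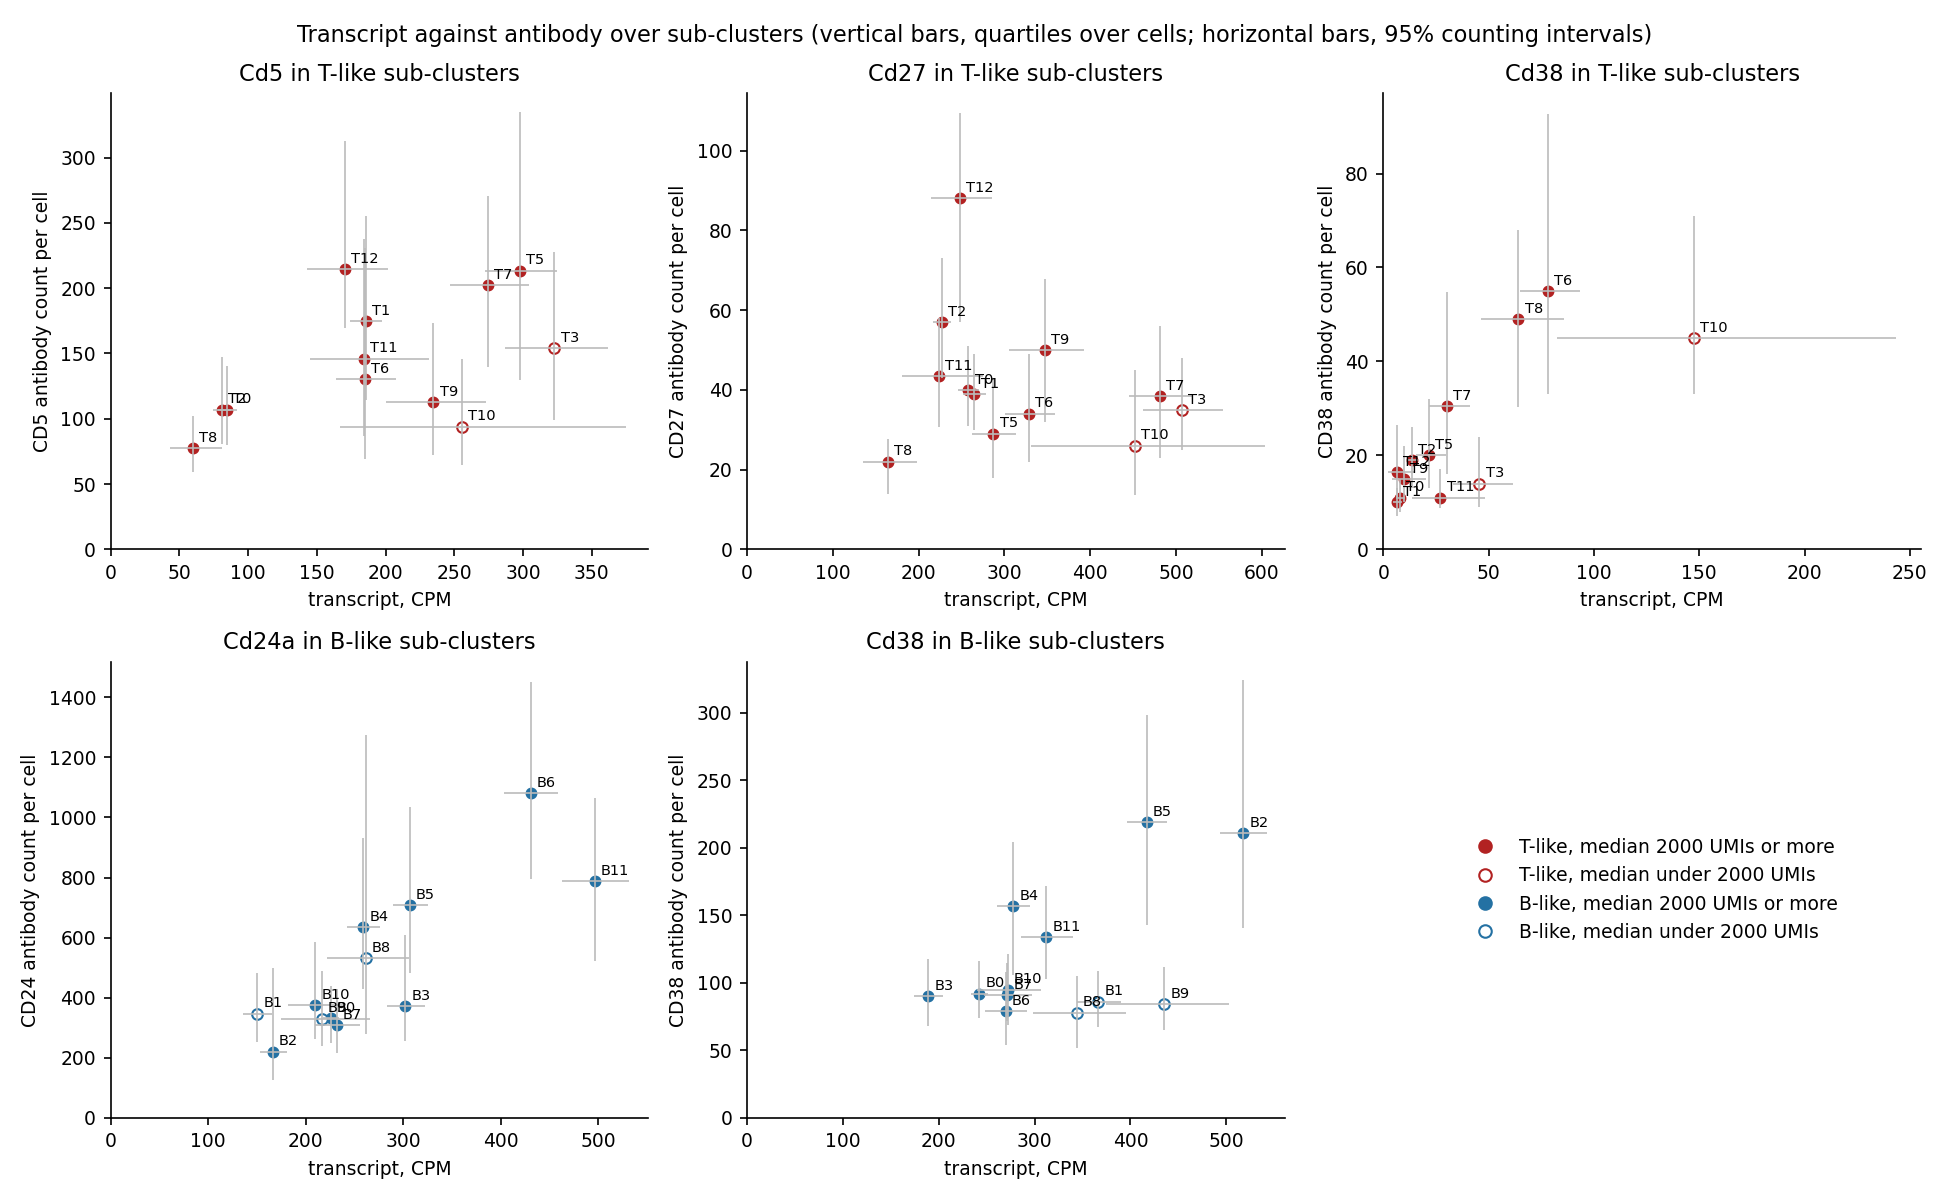
Transcript CPM (horizontal, with 95% counting intervals) against antibody count per cell (vertical, median with quartiles) over the sub-clusters of T-like cells (T0 to T12) and B-like cells (B0 to B11), mixed sub-clusters left out and open points for a median under 2000 UMIs. T2 and T12 carry the most CD27 antibody at middling Cd27 transcript, while B6 and B11 are highest in both CD24 and Cd24a.

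In NK-like cells, Cd27 transcript was higher in cells with more CD27 protein. Cd27 was at 126, 176 and 181 CPM in the upper CD27 set (23, 40 and 100 cells), against 41.2, 62.4 and 55.1 CPM in the lower. The sets did not overlap between libraries, but other genes without overlap were not counted. The ratio was 3.09 (2.05 to 4.82, 146 against 28 UMIs), where 0.901% of 3553 genes passed 1.5-fold in every library. Klrg1, an inhibitory receptor gene of mature NK cells, was lower in the upper set, at 0.25, 0.01 and 0.13 of its level in the lower set, with Ly6c2 at 0.04, 0.09 and 0.17 and Cma1, a chymase gene, at 0.03, 0.03 and 0.23. The upper set was high in Xcl1, a chemokine gene (2.98, 3.76 and 5.08-fold), Cxcr3 (2.80, 3.07 and 9.48-fold) and Cd3d (3.46, 7.29 and 2.43-fold). T cell markers summed to 813 CPM in the upper and 402 CPM in the lower set, with 6 of 7 higher, and the 6 NK cell markers to 7439 and 15958 CPM with 0 higher. The part of these markers in the ratio was not tested. In the 184 of 490 NK-like cells without a UMI of any B cell marker the ratio was 3.03 (1.52 to 6.70). Median depth was 5064 UMIs in the upper and 3059 UMIs in the lower set, and with cells thinned to 1000 UMIs the ratio was 2.29. B-like cells gave a Cd27 ratio of 1.102 (0.94 to 1.29) at antibody medians of 8 counts or fewer.

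Of 8 listed partners of CD27, Cd70, its ligand, was close to undetected, with at most 0.49 CPM in any class. Traf5, an adaptor of CD27, had 99.0 CPM in B-like, 45.1 CPM in T-like and 34.9 CPM in NK-like cells, Traf3 68.6, 44.8 and 49.0 CPM, and Traf2 27.3, 20.1 and 29.3 CPM. Genes of the non-canonical NF-κB pathway (Map3k14, Nfkb2 and Relb) ranged between 18.7 and 32.6 CPM in T-like cells, and Siva1, a death domain protein that binds CD27, had 29.6 CPM. Over the 26 clusters the genes most like Cd27 were Lck (rho 0.971), Scamp3 (0.958), Prkcq (0.956), Skap1 (0.954) and Zap70 (0.953), most of them of T cell receptor signalling.

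CD24 was graded among B-like cells, and cells high in the protein were high in the transcript. Cd24a was at 413, 322 and 333 CPM in the upper CD24 set of libraries 1, 2 and 3, against 164, 120 and 191 CPM in the lower set. The sets did not overlap between libraries, but other genes without overlap were not counted. The ratio was 2.19 (2.07 to 2.32), and 0.352% of 3123 genes passed 1.5-fold in every library. Plac8 (2.37, 2.38 and 2.55-fold), Fam129c (3.46, 2.37 and 2.30-fold) and Dph5 (2.02, 2.33 and 2.35-fold) led the other genes that were higher. Gpr183, a receptor that guides B cells in the follicle, was lower at 0.50, 0.65 and 0.66. Ranked within sub-cluster and library, the ratio was 1.71 (1.62 to 1.80), and Cd24a was 1 of the 3 genes (0.0961%) past 1.5-fold in every library. The other 2 were haemoglobin genes, Hba-a2 (2.96, 1.94 and 3.37-fold) and Hba-a1 (3.62, 1.61 and 4.12-fold), and Hba-a2 was also higher in the upper CD27 set of B-like cells (3.40, 2.28 and 7.13-fold). Erythroid markers summed to 1264 CPM in the upper and 439 CPM in the lower set of the class ranking (6 of 9 higher), against 446992 to 683722 CPM in erythroid-like cells, and their part in the ratio was not tested. The upper set had more RNA (median 3905 UMIs, against 2832) and more antibody counts in all (2801, against 1678), and with every cell thinned to 1000 UMIs the ratio was 2.05.

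Transitional-like B cells (B6, 572 cells) had the highest CD24 antibody median of the 12 sub-clusters, with 468, 418 and 429 CPM of Cd24a and antibody medians of 1084, 1035.5 and 1105.5. B1-like cells of library 1 had 487 CPM and 787 counts. Sub-cluster B5 (620 cells), which carried the marginal zone list without passing the naming rule, had 307 CPM and a median of 707.5. Atypical-like cells (B2, 723 cells) were low at 166 CPM and 220 counts, but in library 3 (99 cells) the same sub-cluster had 299 CPM and 538 counts, against 124 CPM and 168.5 counts in library 2 (498 cells). Library 3 was thus the highest and library 2 the lowest at both levels. Over the 12 B-like sub-clusters the rank correlation was 0.769.

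Erythroid-like cells fell into a cluster with 1943 CPM of Cd24a and a median of 1801 antibody counts (cluster 13, 372 of 383 cells from library 1, led by Slc4a1, the band 3 anion exchanger, and Rhd) and a cluster led by haemoglobin genes with 552 CPM and 986 counts (cluster 24, 89 cells). Within library 1, the CD24 upper set had 2039 CPM and the lower 1401 CPM, a ratio of 1.46 (1.35 to 1.57), and over all libraries the ratio was 1.58, and 2.46 without library 1. In this class 69.3% of 1802 genes were at least 1.5-fold higher in the upper set of library 1, the only library with at least 60 such cells, so the ratio of Cd24a was smaller than that of most genes. The highest were genes of the mitotic spindle, Aspm (7.04-fold) and Plk1 (6.37-fold). Erythroid markers, haemoglobin genes among them, summed to 446992 CPM in the class in library 1, and their part in the ratio was not tested. The CD38 antibody differed between the same clusters, with a median of 10 counts at 6.70 CPM of Cd38 in cluster 13 and 92 counts at 58.8 CPM in cluster 24. Over the whole class Cd38 had 41 UMIs in the upper and 3 in the lower CD38 set, and C1qc, a complement gene of macrophages, had the highest ratio of upper to lower set of all genes in library 1.

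In neutrophil-like cells no difference in Cd24a was detectable between cells high and low in CD24 protein. The upper set had antibody medians of 848, 818 and 755.5, against 417, 425 and 401 in the lower. Cd24a was at 522, 373 and 345 CPM in the upper set, against 448, 374 and 321 CPM in the lower, and the ratio was 1.12 (0.97 to 1.29). The share of genes past 1.5-fold in every library was 2.9% of 2623. B cell markers summed to 1134 CPM in the upper and 340 CPM in the lower set (7 of 7 higher), and without cells that had a UMI of one the ratio was 1.13 (0.92 to 1.37, 364 of 727 cells). Cluster 21, led by the granule protein genes Ngp, Camp and Ltf, had 509 CPM (471 to 550) and a median of 608, and cluster 10, led by Il1b, Csf3r and Cxcr2, 373 CPM (342 to 407) and 583.5. The other members were low in neutrophil-like cells and higher in the upper set of their own antibody, as were lymphocyte markers. Cd38 had 67 against 8 UMIs in the upper and lower CD38 sets, where B cell markers summed to 1475 CPM in the upper and 182 CPM in the lower set, and Scrublet marked 9.92% and 0% of the cells as doublets. Cd27 had 40 against 3 UMIs in the CD27 sets, where T cell markers summed to 408 and 65.2 CPM, and Cd5 had 16 against 1 in the CD5 sets, where they summed to 399 and 66.6 CPM. In NK-like cells Cd24a had 50 against 7 UMIs in the CD24 sets, with B cell markers at 1983 and 254 CPM, and Cd5 21 against 4 in the CD5 sets, with T cell markers at 860 and 460 CPM. In T-like cells the ratio for Cd24a was 1.73 (1.35 to 2.22), with erythroid markers at 470 and 228 CPM (7 of 9 higher) and B cell markers at 264 and 187 CPM (7 of 7 higher), and the part of these markers was not tested.

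Among dendritic-like cells, the cluster with Xcr1 and Clec9a (cluster 22, 114 cells) had 293 CPM of Cd24a (260 to 329) and a median of 446.5 counts, against 49.7 CPM (39.5 to 61.7) and 150.5 counts in the cluster with Cd209a (cluster 16, 260 cells). Of 6 listed partners of CD24, Siglecg, the lectin that binds it, was highest in B-like cells at 392 CPM, and Lyn, an Src family kinase, had 421 CPM there and 769 CPM in monocyte-like cells. Selplg, the P-selectin ligand, had 622 CPM (593 to 653) in neutrophil-like cells. Overlapping intervals were found for Selplg in plasmacytoid-like (604 CPM, 522 to 695) and NK-like cells (563 CPM, 531 to 597). Selp itself had at most 6.34 CPM in any class. Fgr, of the same kinase family as Lyn, had 382 CPM (362 to 403) in monocyte-like and 374 CPM (351 to 398) in neutrophil-like cells. The genes most like Cd24a over clusters were Optn (rho 0.787), Snx22 (0.767), E2f2 (0.716), Nusap1 (0.707) and F930017D23Rik (0.694), lower values than for the other members.

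CD38 was graded in B-like cells. Cd38 was at 365, 419 and 304 CPM in the upper CD38 set, against 267, 252 and 242 CPM in the lower. The ratio was 1.44 (1.37 to 1.51), below the 1.5-fold used for the background share of 0.256% of 3123 genes, and 1.19 (1.14 to 1.25) when ranked within sub-cluster. Median depth was 4067 UMIs and 2747 antibody counts in the upper set, against 2711 UMIs and 1675 antibody counts in the lower. Erythroid markers summed to 1177 CPM in the upper and 467 CPM in the lower set (6 of 9 higher) and neutrophil markers to 122 and 201 CPM (0 of 10 higher), and their part in the ratio was not tested. Ptpn22, a phosphatase of antigen receptor signalling (3.05, 3.50 and 2.09-fold), and Apoe (3.87, 5.51 and 1.84-fold) were highest in the upper set, and Vpreb3, a gene of immature B cells, was low at 0.36, 0.53 and 0.68. Atypical-like B2 cells had 509, 559 and 337 CPM of Cd38 with antibody medians of 194, 235.5 and 139, so that library 3 was lower at both levels. Sub-cluster B5 had 417 CPM and 219 counts, while transitional-like B6 cells, the highest for CD24, had 270 CPM and 79 counts. Over the 12 sub-clusters the rank correlation was 0.24, and 0.88 over the 9 with a median of at least 2000 UMIs. The other 3 (B1, B8 and B9) had 344 to 435 CPM at medians of 78 to 86.

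CD38 differed between T-like subsets. Effector or exhausted-like cells (T6, 358 cells) had 78.2 CPM of Cd38 (64.8 to 93.5) and an antibody median of 55, NKT-like T8 cells 64.1 CPM (46.6 to 86.0) and 49, and regulatory-like T7 cells 30.2 CPM (21.6 to 41.2) and 30.5. An unnamed sub-cluster of shallow cells (T10, 79 cells, median 1099 UMIs) had 147 CPM (82.5 to 243) and a median of 45. Shallow cells named regulatory-like by their transcripts (T3, 531 cells, median 1266 UMIs) had 45.7 CPM (32.9 to 61.7) and a median of 14. Their CD25 antibody median was 7, against 14.5 in T7 cells. Naive-like T0 and T1 cells were low, at 7.93 and 6.54 CPM with medians of 11 and 10. Memory-like T2 cells made up 18.8% of the upper CD38 set of T-like cells and 10.5% of the lower. The shares were 16.0% and 0.735% for T6 cells, and 10.2% and 4.52% for follicular helper-like T5 cells. They went the other way for T0 cells (10.6% and 28.9%) and T1 cells (7.07% and 36.1%). T6 cells numbered 209 of 982 T-like cells in library 1, 132 of 1995 in library 2 and 17 of 2331 in library 3. The class level of Cd38 was highest in library 1, at 33.4 CPM. Libraries 2 and 3, with 15.6 and 14.95 CPM, had overlapping counting intervals. Within T6 the 3 libraries had 83.2, 68.7 and 80.1 CPM and medians of 56, 54 and 47. The part of T6 cells in the class level was not tested. The ratio of Cd38 between the CD38 sets was 4.92 (3.79 to 6.48, 339 against 69 UMIs), with 17.8, 4.25 and 2.83 in libraries 1, 2 and 3, and 2.84% of genes were at least 1.5-fold higher in every library. Cd38, at 18.4 CPM, was itself under the 50 CPM that a gene needed to be counted there. Ikzf2, the Helios gene (5.47, 12.2 and 8.40-fold), and Maf (3.82, 5.07 and 9.37-fold) were among the highest. Ranked within sub-cluster the ratio was 2.06 (1.63 to 2.62), with a background of 0.0342%. With the mixed sub-clusters kept in the class the ratio was 9.32. B cell markers summed to 264 CPM in the upper and 190 CPM in the lower class set (7 of 7 higher), against 9036 to 9204 CPM in B-like cells. NK cell markers summed to 290 CPM in the upper and 69.6 CPM in the lower set (6 of 6 higher), and erythroid markers to 408 and 240 CPM (7 of 9 higher). The part of these markers in the ratio was not tested.

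In NK-like cells the upper CD38 set had 95.6, 157 and 120 CPM of Cd38, against 40.7, 32.8 and 24.4 CPM in the lower, a ratio of 4.37 (2.54 to 8.07) with 1.46% of genes past 1.5-fold in every library. Those genes were led by B cell genes, Fcmr (8.55, 14.9 and 6.98-fold) and Cd79a (10.6, 8.25 and 5.62-fold). B cell markers summed to 1766 CPM in the upper and 321 CPM in the lower set with 7 of 7 higher, NK cell markers to 8114 and 13997 CPM with 0 of 6 higher, and Scrublet marked 12.3% and 0% of the cells. In the 184 of 490 NK-like cells without a UMI of any B cell marker, the ratio was 3.16 (1.27 to 9.40). Median depth was 4902 UMIs in the upper and 3145 UMIs in the lower set, and with cells thinned to 1000 UMIs the ratio was 2.62.

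**Figure D4:**
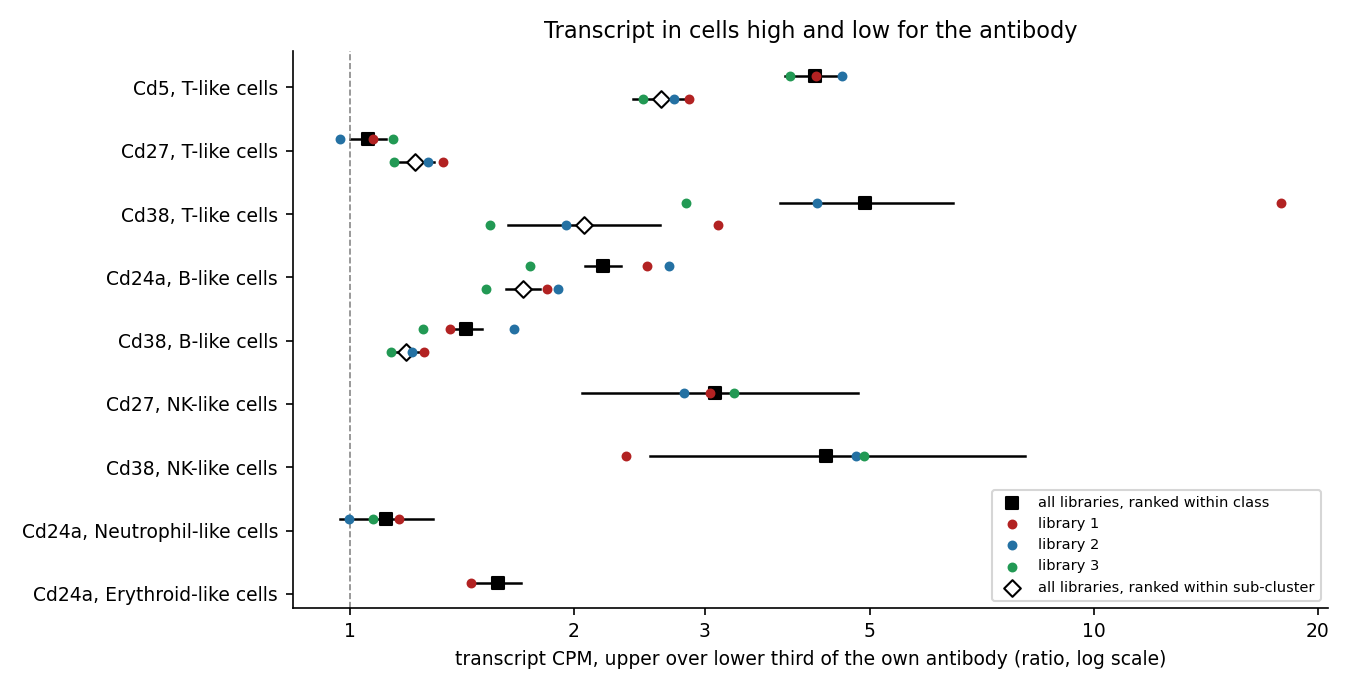
Ratio of transcript CPM in the upper over the lower set of cells by the own antibody (log scale), ranked within class and library (squares) or within sub-cluster and library (diamonds), with exact 95% counting intervals and 1 coloured point per library. Cd5 in T-like cells reaches 4.22 and Cd24a in B-like cells 2.19, while Cd27 in T-like cells (1.06) and Cd24a in neutrophil-like cells (1.12) stay close to 1.

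Of 10 genes listed around CD38, Parp1, another consumer of NAD, was highest in B-like cells at 224 CPM. Pecam1, the CD31 protein reported to bind CD38, had 208 CPM (204 to 213) there. Overlapping intervals were found for Pecam1 in basophil-like (207 CPM, 152 to 276) and macrophage-like cells (188 CPM, 162 to 217). Bst1, the CD38 paralogue also called CD157, was highest in neutrophil-like cells at 136 CPM and had 1.43 CPM in B-like cells, the class with the most Cd38. Trpm2, an ion channel opened by ADP-ribose, was highest in neutrophil-like (167 CPM) and macrophage-like cells (150 CPM), and Nt5e, the CD73 ectonucleotidase, in T-like cells at 56.0 CPM. Nampt and Sirt1, of NAD synthesis and use, had 35.8 and 41.1 CPM in B-like cells, and Nmnat1, also of NAD synthesis, at most 9.24 CPM in any class. Entpd1, the CD39 ectonucleotidase, was highest in neutrophil-like cells at 206 CPM, and P2rx7, an ATP receptor gene, had 17.5 CPM in T-like cells. Among the genes most like Cd38 over clusters were Blk (rho 0.942), Fam129c (0.926), Cd22 (0.923) and Myo1e (0.916).

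Each antibody was also set against the other members' transcripts. In T-like cells the CD27 upper set had less Cd5 (127 CPM, against 178 CPM in the lower, ratio 0.71, 0.66 to 0.77) and less Cd38 (ratio 0.62, 0.50 to 0.76), both below 1 in every library. Ranked within sub-cluster the ratio for Cd5 was 0.96, with 0.89, 1.16 and 0.87 in libraries 1, 2 and 3, and that for Cd38 was 1.04, with 1.32, 0.82 and 1.01. In B-like cells the CD38 upper set had a Cd24a ratio of 0.95 (0.90 to 0.996), with 1.04, 0.87 and 0.97 in libraries 1, 2 and 3, and 0.85 (0.81 to 0.90) within sub-cluster, with 0.85, 0.81 and 0.89. The CD24 upper set of B-like cells had a Cd38 ratio of 0.98 (0.94 to 1.02) over all libraries, but the libraries differed in direction, with 1.03 (0.92 to 1.14) in library 1, 0.83 (0.77 to 0.88) in library 2 and 1.197 (1.11 to 1.29) in library 3. Ranked within sub-cluster the libraries gave 1.06, 0.97 and 1.02.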

How the data were processed

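RNA and antibody libraries of 3 pools were measured. The authors deposited 1 matrix of UMI counts per feature and barcode (31053 genes and 34 antibodies), whole numbers without normalization, written by Cell Ranger 5.0.1 according to its header. Seurat and mm10 also stand in the notes on processing. Barcodes with 300 to 5000 genes and at most 10% mitochondrial UMIs were kept, the limits the study used. Counts were scaled to 10000 per cell and logged, UMI number was regressed out, and 2000 variable genes without the 4 members gave 20 principal components, 20 neighbours and Louvain clusters (resolution 0.8, igraph 0.11.9). A cluster was named where over 60% of its cells scored best for 1 marker list. B-like and T-like cells were clustered again, and cells marked by Scrublet (scanpy 1.11.5, 504 cells, 2.50%) were kept. Sub-clusters were named without the 60% limit. The markers of a list needed a median log2 ratio of at least 0.5 against the rest of the class. At least 3 of them had to be found in 10% or more of the cells. Among the 10 leading genes, markers of another subset, or erythroid and neutrophil markers, could not outnumber those of the list. Very shallow sub-clusters with no marker of the list among these genes stayed unnamed. Sub-clusters T4 (501 cells) and B12 (47 cells), led by markers of the other lineage, were set apart after seeing them. CPM are summed counts per 1000000 RNA UMIs, with exact 95% intervals. The upper and lower of 3 equal sets by antibody count were taken within class and library (ties in seeded random order), and libraries with under 60 cells of a class did not enter the background share. For the background share and for genes other than the members, ratios in 1 library had 0.5 counts added to both sets. The ratios given for the members had no counts added. Of the 4 members, 2 reached the 50 CPM limit of the background share in B-like, T-like and NK-like cells and 1 in neutrophil-like and erythroid-like cells. The ratio step was tested on simulated data. Members, lists and tests were chosen with earlier results of these data known. The genes named are the members, the 5 genes most like each over clusters, a fixed partner list, and the 3 genes with the largest ratio in each direction per antibody and class, of which the text gives those beside a member result. Some genes that this rule names are not reported here. The 3 libraries are 1 pool per group, so every spread given is between libraries and cells, not between mice.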

Additional observations from a re-analysis of the deposited data

How the results depend on the processing

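No paired analysis was possible because each group has 1 pool and no test was run. Of 183 recomputed values for 21 results, 118 stayed within the counting interval or 1 SD over libraries and 65 moved. Ratios of upper to lower set crossed 1 for Cd27 in T-like cells (1.06, and 0.993 with thinned cells) and for Cd24a in neutrophil-like cells (1.12, 0.982 by share of antibody counts and 0.905 with 1 in 10 cells at each end), both with an interval that held 1 before. Thinning to 1000 UMIs gave 172 CPM for Cd5 and 318 for Cd27 in T-like cells, 1772 for Cd24a in erythroid-like cells, and ratios of 5.13 (Cd5, T-like), 0.993 (Cd27, T-like) and 2.05 (Cd24a, B-like). Means of per-cell CPM were 179 (Cd5), 325 (Cd27), 1861 (Cd24a) and 312 (Cd38). CPM without haemoglobin, immunoglobulin and mitochondrial genes were 152, 286, 3258 and 325 in that order. A mitochondrial limit of 5% gave 140 (Cd5), 264 (Cd27) and 276 CPM (Cd38). By share of antibody counts, the antibody ratio of the leading class to all other cells was 4.75 for CD5 (median ratio 3.82), 3.52 for CD24 (6.15) and 2.67 for CD38 (5.39), the cluster correlations were 0.864 (CD5) and 0.936 (CD24), and the ratios between upper and lower sets in T-like cells 4.76 (Cd5) and 1.17 (Cd27). Taking 1 in 10 cells at each end in place of 1 in 3 gave 7.14 (Cd5, T-like), 1.24 (Cd27, T-like), 4.07 (Cd24a, B-like), 1.77 (Cd38, B-like), 10.7 (Cd38, T-like), 13.1 (Cd38, NK-like) and 0.905 (Cd24a, neutrophil-like). Resolution 0.4 gave 0.881 (CD5), and named clusters alone 0.932 (CD24). Some alternatives were chosen after seeing the data. Of these, ranking within sub-cluster gave 2.62 (Cd5), 1.22 (Cd27), 1.71 (Cd24a) and 1.19 (Cd38), dropping cells under 2000 UMIs gave 1.54 (Cd38, B-like), dropping such clusters gave 0.960 (CD24) and 0.893 (CD38), and keeping mixed cells gave 266 CPM (Cd27). Leaving out 1 library in turn gave 132 to 160 CPM (Cd5), 268 to 287 (Cd27), 287 to 330 (Cd38) and 923 to 1757 (Cd24a, lowest without library 1), antibody ratios of 3.69 to 6.60 (CD24, lowest without library 1) and 8.20 to 10 (CD27, main value 8), correlations of 0.693 to 0.750 (CD5), 0.856 to 0.898 (CD24), 0.761 to 0.819 (CD27) and 0.695 to 0.836 (CD38), and ratios of 1.001 to 1.12 (Cd27, T-like), 1.95 to 2.64 (Cd24a, B-like), 1.29 to 1.57 (Cd38, B-like), 3.43 to 7.18 (Cd38, T-like) and 1.48 to 2.46 (Cd24a, erythroid-like, highest without library 1). The causes were not tested.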

Other observations

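Cells with little RNA differed from deeper cells of their class in the CPM of the 4 transcripts. T-like cells under 2000 UMIs (632 cells) had 375 CPM of Cd5, against 140 CPM in deeper T-like cells (4676 cells), with CD5 antibody medians of 136.5 and 130. Cd27 was at 597 CPM in the shallow and 266 CPM in the deeper T-like cells, with medians of 32 and 41. The CPM of the shallow cells was higher in each of the 3 libraries for both genes. Mean UMIs per cell were instead lower in the shallow cells, at 0.470 against 0.809 for Cd5 and 0.748 against 1.54 for Cd27. In B-like cells the CPM of Cd24a went the other way, with 141 CPM in 2891 shallow cells, against 269 CPM in 7837 deeper ones. The CD24 antibody medians were 345 and 391. Cd38 was at 385 CPM in the shallow and 296 CPM in the deeper B-like cells, at medians of 84 and 104. Mean UMIs per shallow and deeper B-like cell were 0.168 and 1.13 for Cd24a and 0.459 and 1.24 for Cd38. The median mitochondrial share was 7.99% in shallow and 3.92% in deeper B-like cells, and 7.49% and 3.18% in T-like cells. The part of depth and of mitochondrial share in these levels was not tested.

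The 7731 barcodes left out for more than 10% mitochondrial UMIs went the same way for Cd38, at 350 CPM, against 149 CPM in kept cells, and for Cd24a, at 129 CPM against 208 CPM. Their antibody medians were 88 against 69 for CD38 and 345 against 276 for CD24. The cell classes of these barcodes were not assigned.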
